A study of Mus musculus with 40 samples.

Results

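Meiotic prophase and cohesin genes were followed as a set of 10 named genes: the meiotic cohesin subunit genes Smc1b, Stag3 and Rec8, the chromosome axis and synaptonemal complex genes Sycp1, Sycp3 and Hormad1, the strand-exchange gene Dmc1, and the crossover genes Msh4, Msh5 and Mlh3. They were chosen by name, with no cutoff on a measured value. A gene was read from the transcript locus that the RNA table names after it on the same strand, and 8 of the 10 genes were found that way among 38540 loci, of which 15023 carry a same-strand gene name. The other two, Sycp3 and Msh4, lie in loci whose table entry names an overlapping gene of the opposite strand (Chpt1 and Asb17). Those loci were identified by their position and strand on the RefSeq annotation, with an overlap of at least 50% of both the locus and the gene, and not by their values. Counts are therefore given both for all 10 genes and for the 8 named by the table.

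The samples were pools of 100 to 200 mouse oocytes at the germinal-vesicle stage, fully grown and not yet resuming meiosis, from animals 22 to 25 days old. RNA was measured in 3 control libraries with the title prefix GKAO, 3 G9a cKO libraries with that prefix, 3 control libraries with the prefix GKAQ and 2 G9a-Glp cDKO libraries with that prefix, and each mutant was compared with the controls of its own prefix. G9a cKO is labelled as a conditional deletion of G9a (Ehmt2), and the double mutant, called cDKO here, as a conditional deletion of G9a and of Glp (Ehmt1). The RNA controls are labelled WT in their titles. The driver of the deletions, and any other allele that controls may carry, are not given in the sources used here. Dimethylation of lysine 9 of histone H3 (H3K9me2), the mark that these enzymes place, was measured by low-input native chromatin immunoprecipitation in 2 control, 2 G9a cKO and 2 cDKO libraries, and both mutants share the 2 controls. The labels do not say which oocyte pools came from separate animals, so p-values measure the spread between these libraries, which may be technical.

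Homologous chromosomes pair, break, exchange strands and form crossovers in meiotic prophase, which in females takes place in the fetal ovary; oocytes then arrest and grow, their chromosomes held together by cohesin loaded before birth. Meiotic cohesin carries subunits found in germ cells in place of those of dividing somatic cells, and the synaptonemal complex is the protein zipper that joins the paired axes. In somatic and embryonic stem cells many of these genes are silenced, and G9A and GLP are known there as partners of a repressor complex that holds E2F6, MGA and MAX, which bind E2F and E-box elements.

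The promoter sequences are shown because that complex is known to bind through such letters. The RefSeq promoter windows (GRCm38.p6, 300 bases around each annotated start) were searched on both strands for the E-box CACGTG and for the E2F core GCGGGA, whose reverse complement is TCCCGC. The E2F core was present in windows of 8 of the 10 genes, all but Msh4 and Mlh3, against 19.98% of the 32851 windows of all genes. The E-box was present in windows of 4 of the 10, Sycp1, Sycp3, Stag3 and Hormad1, against 7.15% of all windows. Matches of the 2 motifs did not overlap each other. The 250 bases before the start are given for 4 genes that differ in their matches, 5′ to 3′ on the strand of the gene, with matches in capitals. Sycp3 (chr10:88459337-88459586, plus strand) held E-boxes 64 and 43 bases and an E2F core 147 bases before the start. Hormad1 (chr3:95559427-95559676, plus strand) held E-boxes 57 and 20 bases and an E2F core 95 bases before the start. Smc1b (chr15:85131958-85132207, minus strand) held 1 E2F core, 47 bases before the start, and Dmc1 (chr15:79605110-79605359, minus strand) held 2, at 240 and 13 bases.
Sycp3: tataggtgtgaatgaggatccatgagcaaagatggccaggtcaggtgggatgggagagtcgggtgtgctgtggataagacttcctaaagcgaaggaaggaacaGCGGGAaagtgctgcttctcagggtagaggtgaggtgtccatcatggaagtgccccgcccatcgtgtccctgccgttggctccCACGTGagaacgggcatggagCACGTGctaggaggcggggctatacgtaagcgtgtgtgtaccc
Hormad1: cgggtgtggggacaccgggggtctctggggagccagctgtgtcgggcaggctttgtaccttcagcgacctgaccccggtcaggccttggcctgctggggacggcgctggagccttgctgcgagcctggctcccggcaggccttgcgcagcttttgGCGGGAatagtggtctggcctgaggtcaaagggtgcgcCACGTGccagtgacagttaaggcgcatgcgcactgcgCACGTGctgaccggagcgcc
Smc1b: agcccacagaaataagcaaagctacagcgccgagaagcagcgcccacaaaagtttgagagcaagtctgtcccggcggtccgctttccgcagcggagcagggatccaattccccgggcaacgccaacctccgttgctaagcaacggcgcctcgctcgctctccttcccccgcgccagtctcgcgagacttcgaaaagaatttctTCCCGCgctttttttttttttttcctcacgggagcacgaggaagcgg
Dmc1: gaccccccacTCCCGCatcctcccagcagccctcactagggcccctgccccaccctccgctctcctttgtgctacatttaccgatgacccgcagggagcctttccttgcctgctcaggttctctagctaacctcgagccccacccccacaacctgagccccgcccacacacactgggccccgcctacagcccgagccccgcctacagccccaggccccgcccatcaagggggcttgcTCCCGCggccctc
A match is a run of letters and shows no binding. Over these 250 bases Sycp3 held 12 CpG dinucleotides, Hormad1 19, Smc1b 25 and Dmc1 12, against a median of 6 over all windows. The 10 genes ranged from 4 in Msh4, the one below that median, to 26 in Stag3, and the Msh4 window held 43.6% G and C against a median of 52.4% over all windows. The 250 bases of Msh4 (chr3:153904892-153905141, minus strand) lie inside the RefSeq gene and the RNA locus, which both begin at 153906138 on that strand. They may therefore not be the promoter of that locus. Those of Stag3 (chr5:138280259-138280508, plus strand) lie inside the RefSeq gene, which begins at 138272514, but at the start of the RNA locus (138280196).

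Facts of the whole series bear on all values. RNA libraries were scaled to totals of 1458868 to 2399680 reads, so 3 reads correspond to 1.25 to 2.06 reads per 1000000 (RPM). RPM is not corrected for transcript length, so levels are compared between libraries and not between genes. Ehmt2 had 9 to 13 reads in the GKAO controls and 2 to 11 in the G9a cKO, ranges that overlap, and 8 to 30 reads in the GKAQ controls against 5 and 5 in the cDKO. Reads of Ehmt1 numbered 144 to 173 in GKAQ controls, against 31 to 36 in the cDKO. The labels do not say which exons were deleted, so reads from the rest of each gene are counted too. All 12 oocyte markers, among them Zp3, Gdf9 and Nlrp5, had a mean of at least 10 RPM. Of them 2 were called in the G9a cKO, both higher, and 7 in the cDKO, 5 higher and 2 lower. Between the control series 5 were called. Of all loci at that level 5.22%, 15.8% and 14.8% were called in these comparisons. Of 6 blood and immune markers 4 were matched, Hba-a1, Hbb-bs, Hbb-bt and Alas2, and 3 of these were at 0 reads in every library. The immune marker Ptprc was not matched, so immune cells were not assessed. The 12 granulosa cell markers summed to 378 to 404 RPM in the GKAQ controls and 327 to 366 RPM in the cDKO, and to 402 to 443 RPM in the GKAO controls and 390 to 405 RPM in the G9a cKO. The 3 of them with a mean of at least 10 RPM, Cyp19a1, Nr5a2 and Bmpr1b, had log2 fold changes of -0.71 to -0.19 in the cDKO, none of them called. The other 9, under 10 RPM, summed to 13.2 to 23.8 RPM in the GKAQ controls and 30.2 to 31.4 RPM in the cDKO, and to 23.6 to 25.4 RPM in the GKAO controls and 22.4 to 23.4 RPM in the G9a cKO. In the cDKO 2 of the 12 were called, where 6.34% of all loci were, both higher and both under 10 RPM: Inha (log2 fold change 2.26, limma adjusted p = 0.00472) and Fshr (2.15, adjusted p = 0.0300). Between the control series 2 of the 12 granulosa cell markers were called, both lower in GKAQ than in GKAO, where 3.87% of all loci were called. The part of these cells' RNA in the cDKO results was not tested. In pools of cells, fewer cells with an RNA and less of that RNA per cell cannot be told apart.

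**Figure D1:**
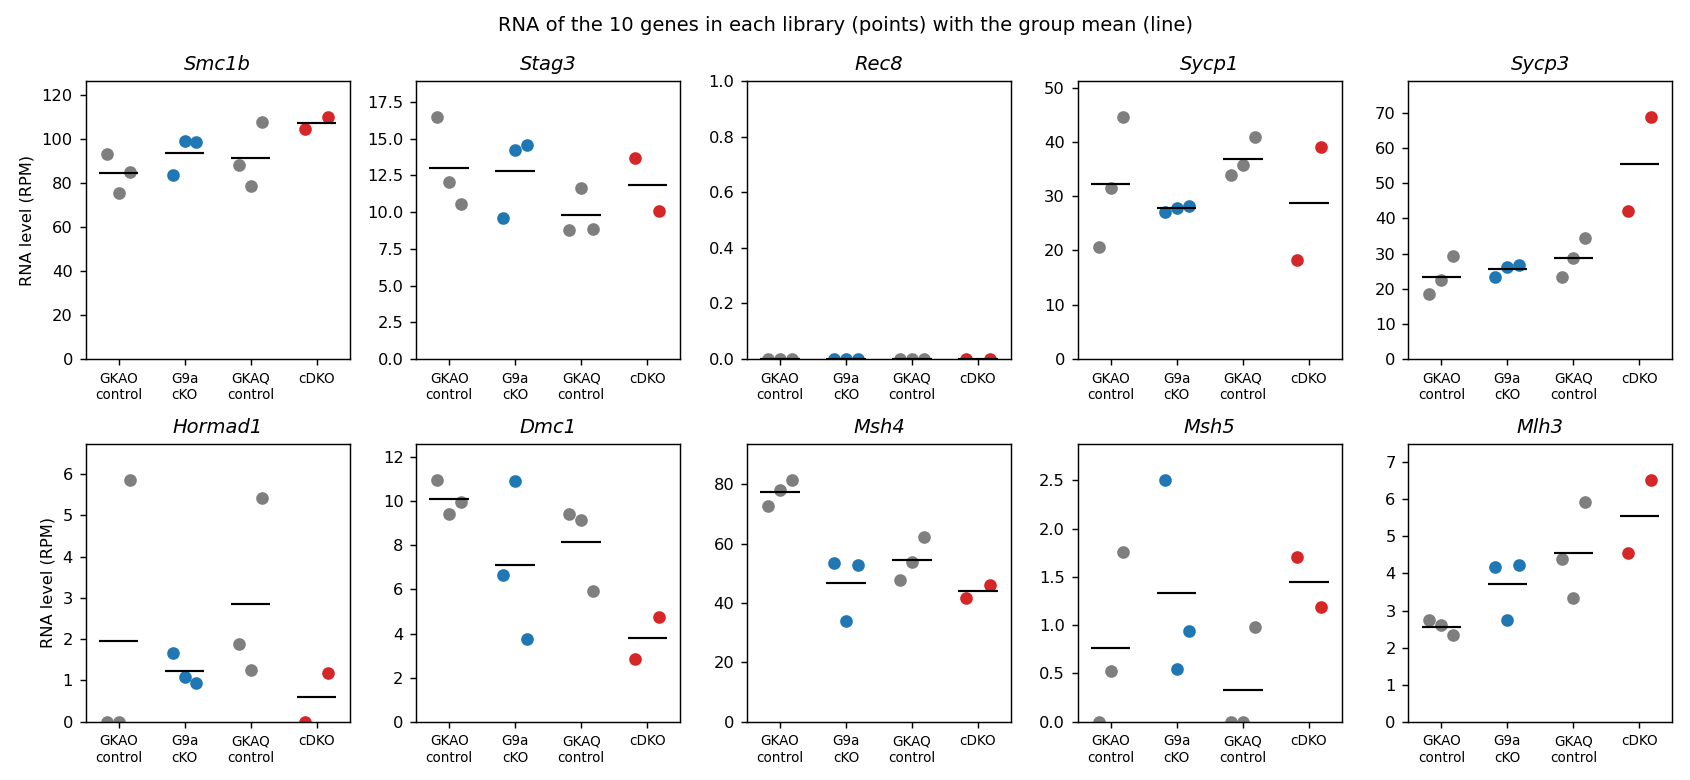
RNA level of the 10 genes (RPM, linear axis from 0, one panel and scale per gene) in each of 11 libraries, shown as points by group, with the group mean as a line. Sycp3 stands at 42.1 and 68.8 RPM in the cDKO, above all 9 other libraries, and Msh4 at 72.7 to 81.5 RPM in the GKAO controls, above all other libraries.

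Reads were found for 9 of the 10 genes, all but Rec8, and for most of them no change passed the test in either mutant. A gene is described as called when the adjusted p of limma, fitted over all 38540 loci, was under 0.05. In the G9a cKO 1 of the 10 genes was called, Msh4, which was lower, where 1.79% of all loci were called (0.737% lower), or 5.22% of the loci with a mean of at least 10 RPM. In the cDKO 1 of the 10 was called, Sycp3, which was higher, where 6.34% of all loci were called (4.32% higher), or 15.8% of the loci with a mean of at least 10 RPM. By the test of the difference between the 2 effects 0 of the 10 were called, where 1.08% of all loci were, with 1 (Sycp3) at an unadjusted p under 0.05. Of the 8 genes that the table itself names, 0 were called in either mutant, and 0 in the G9a cKO and 2 in the cDKO, Hormad1 and Dmc1, had an unadjusted p under 0.05. The share of all loci at that unadjusted cutoff was not counted, so such counts, here and for the lists below, have no background beside them. The libraries of mutant and control did not overlap for 1 of the 10 genes in the G9a cKO, Msh4, against 11% of all loci or 25.2% of those with a mean of at least 10 RPM. In the cDKO they did not overlap for 5, Sycp3, Msh4, Dmc1, Hormad1 and Msh5, against 23.9% of all loci or 48.6% of those with a mean of at least 10 RPM. Only Sycp3 and Msh4 of these genes had that level, and Hormad1 and Msh5 had few reads. The median log2 fold change over the 10 genes was -0.01 in the G9a cKO and 0.22 in the cDKO, against -0.31 and 0.20 over all loci, most of which had few reads. A locus without reads, such as Rec8, takes a fitted value set by library depth alone, 0.20 in the cDKO. These medians are therefore not read as changes of RNA. Over loci with a mean of at least 10 RPM the median was 0.01 and 0.05, and over the 5 genes of that level -0.02 and 0.24.

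Among the cohesin subunits, Smc1b, the meiotic counterpart of the SMC1 subunit of the ring (TCONS_00039929, chr15:85063327-85131999, minus strand), gave 136 to 218 reads per library. Its level was 93.2, 75.4 and 85.0 RPM in the GKAO controls, and 83.5, 98.9 and 98.4 RPM in the G9a cKO. In the GKAQ controls it was 88.0, 78.3 and 107 RPM, and in the cDKO 104 and 110 RPM. Mutant and control libraries overlapped in both comparisons. The G9a cKO gave a log2 fold change of 0.15 ± 0.15 (SE), limma adjusted p = 0.486, with a 95% interval from -0.14 to 0.44. In the cDKO it was 0.24 ± 0.16, adjusted p = 0.565, with an interval from -0.08 to 0.56, so a doubling of Smc1b lies outside both intervals.

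Stag3, the subunit that replaces STAG1 and STAG2 in meiotic cohesin (TCONS_00079669, chr5:138280196-138312393, plus strand), was lower in reads, with 14 to 31 per library. The GKAO controls stood at 16.5, 12.045 and 10.5 RPM and the G9a cKO at 9.60, 14.2 and 14.6 RPM. The GKAQ controls stood at 8.80, 11.7 and 8.87 RPM and the cDKO at 13.7 and 10.1 RPM. The groups overlapped, and log2 fold changes were -0.02 ± 0.35 (SE) in the G9a cKO, with an adjusted p of 0.972, and 0.28 ± 0.39 (adjusted p = 0.664) in the cDKO. The 95% interval in the G9a cKO ran from -0.70 to 0.65, so changes of that size in either direction were not detectable for Stag3 at this depth.

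Rec8, the kleisin that closes the meiotic cohesin ring, could not be assessed. The locus named for it (TCONS_00032849, chr14:55618183-55618816, plus strand) covers 8.57% of the RefSeq gene and had 0 reads in all 11 libraries, which allows a level of up to 1.25 RPM in the deepest library and 2.06 RPM in the shallowest, for counting error alone and for that piece only. No fold is given.

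Sycp3, a structural protein of the chromosome axis, gave the highest values in the double mutant (TCONS_00010033, chr10:88459569-88473235, plus strand). The GKAO controls held 27, 43 and 50 reads, which is 18.5, 22.5 and 29.3 RPM, and the G9a cKO 56, 48 and 57 reads, or 23.4, 26.2 and 26.8 RPM. The GKAQ controls held 37, 69 and 70 reads, or 23.3, 28.8 and 34.5 RPM, and the cDKO 74 and 116 reads, or 42.1 and 68.8 RPM. Both cDKO libraries lay above all 9 others, while the G9a cKO libraries lay within the range of their controls.

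Sycp3 rose in the cDKO by 0.92 on the log2 scale (SE 0.26, 1.89-fold, limma adjusted p = 0.0118), higher in 2 of 2 libraries. In the G9a cKO the log2 fold change was 0.14 ± 0.23 (adjusted p = 0.686). The difference between the 2 effects was 0.78 ± 0.35 with an adjusted p of 0.169, so the effect was not shown to differ between the mutants. The call was lost without cDKO replicate 2, where the log2 fold change was 0.57 (adjusted p = 0.540), and without GKAQ control replicate 1, where it was 0.77 (adjusted p = 0.0981). The opposite-strand locus that overlaps Sycp3 does so over 397 bases, 2.90% of the Sycp3 locus. Over its whole length it had 2 to 14 reads per library, fewer than the 27 to 116 reads of Sycp3. Its own log2 fold change in the cDKO was 1.65 (limma adjusted p = 0.137), in the direction of Sycp3 and not called. The part of its reads in the Sycp3 values was not tested.

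Sycp1, the transverse filament that joins the paired axes (TCONS_00068194, chr3:102818352-102936177, minus strand), varied widely among the GKAO control and the cDKO libraries. The GKAO controls stood at 20.6, 31.4 and 44.5 RPM, and the G9a cKO at 27.1, 27.9 and 28.3 RPM, inside that range. The GKAQ controls stood at 33.9, 35.8 and 40.9 RPM. The cDKO libraries stood at 18.2 and 39.1 RPM, one below and one within the range of their controls. Log2 fold changes were -0.14 (SE 0.23; adjusted p = 0.680) in the G9a cKO and -0.46 ± 0.26 (adjusted p = 0.398) in the cDKO. Without cDKO replicate 2 the second value was -1.01 with an adjusted p of 0.0388, and without cDKO replicate 1 it was 0.09, so the sign rests on a single library.

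Hormad1, an axis protein that promotes pairing and break formation and is removed as chromosomes synapse (TCONS_00065116, chr3:95559668-95587744, plus strand), was near the limit of counting. The GKAO controls held 0, 0 and 10 reads and the G9a cKO 4, 2 and 2. The GKAQ controls held 3, 3 and 11 reads and the cDKO 0 and 2. The cDKO libraries lay below their controls, with an adjusted p of 0.312, and the fitted value depends on what is assigned to an empty locus. An opposite-strand locus with 13 to 47 reads per library covers 43.2% of the Hormad1 locus, and whether the counting kept the strands apart is not given in the sources used here.

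Dmc1, the meiotic recombinase that carries out strand exchange between homologues (TCONS_00039694, chr15:79561500-79605132, minus strand), had 5 to 22 reads per library. Its level was 10.97, 9.43 and 9.96 RPM in the GKAO controls and 6.68, 10.9 and 3.77 RPM in the G9a cKO. It was 9.43, 9.17 and 5.91 RPM in the GKAQ controls and 2.85 and 4.74 RPM in the cDKO. The cDKO libraries did not overlap their controls and were, with G9a cKO replicate 3, the lowest of the 11. Log2 fold changes were -0.64 (SE 0.43; adjusted p = 0.285) in the G9a cKO and -1.12 ± 0.48 (unadjusted p = 0.0190, adjusted p = 0.167, limma) in the cDKO, and neither was called.

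Msh4, which with MSH5 forms the clamp that stabilises crossover intermediates (TCONS_00069028, chr3:153854801-153906138, minus strand), was the other called gene. The GKAO controls held 106, 149 and 139 reads, or 72.7, 78.0 and 81.5 RPM. The G9a cKO held 128, 62 and 112 reads, or 53.4, 33.9 and 52.7 RPM, all below those controls. The GKAQ controls held 76, 129 and 126 reads, or 47.8, 53.8 and 62.1 RPM, and the cDKO 73 and 78 reads, or 41.6 and 46.2 RPM. The 2 control series thus did not overlap each other, and the G9a cKO libraries overlapped the range of the GKAQ controls.

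Msh4 fell in the G9a cKO by 0.76 on the log2 scale (SE 0.18, limma adjusted p = 0.00393), lower in 3 of 3 libraries. In the cDKO the log2 fold change was -0.31 ± 0.20 (adjusted p = 0.565), and the effects of the mutants differed by 0.45 ± 0.27 (adjusted p = 0.225). Between the 2 control series the log2 difference, GKAQ against GKAO, was -0.51 ± 0.18 (unadjusted p = 0.00489, adjusted p = 0.102). Against all 6 controls the G9a cKO value was -0.50 with an adjusted p of 0.114, and without G9a cKO replicate 2 it was -0.54 with an adjusted p of 0.128, so the call was lost in both cases. The opposite-strand locus at Msh4 overlaps it over 282 bases, 0.549% of its length, and had 2 to 8 reads per library. Its own log2 fold change in the G9a cKO was -0.69 (limma adjusted p = 0.460), in the direction of Msh4 and not called.

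Msh5, the partner of MSH4 (TCONS_00047921, chr17:35028605-35046794, minus strand), had 0, 1 and 3 reads in the GKAO controls, 6, 1 and 2 in the G9a cKO, 0, 0 and 2 in the GKAQ controls and 3 and 2 in the cDKO. No library exceeded 6 reads and no fold is given. Mlh3, an endonuclease subunit that acts in crossover resolution (TCONS_00025240, chr12:85234472-85270678, minus strand), had 4 to 12 reads per library. It stood at 2.74, 2.62 and 2.34 RPM in the GKAO controls and 4.17, 2.73 and 4.24 RPM in the G9a cKO, and at 4.40, 3.33 and 5.91 RPM in the GKAQ controls and 4.56 and 6.52 RPM in the cDKO. The groups overlapped in both comparisons, and log2 fold changes were 0.51 (SE 0.55; adjusted p = 0.522) and 0.30 (SE 0.61; adjusted p = 0.741). The 95% intervals ran from -0.56 to 1.58 and from -0.90 to 1.495, so a doubling of Mlh3 was not detectable at this depth.

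**Figure D2:**
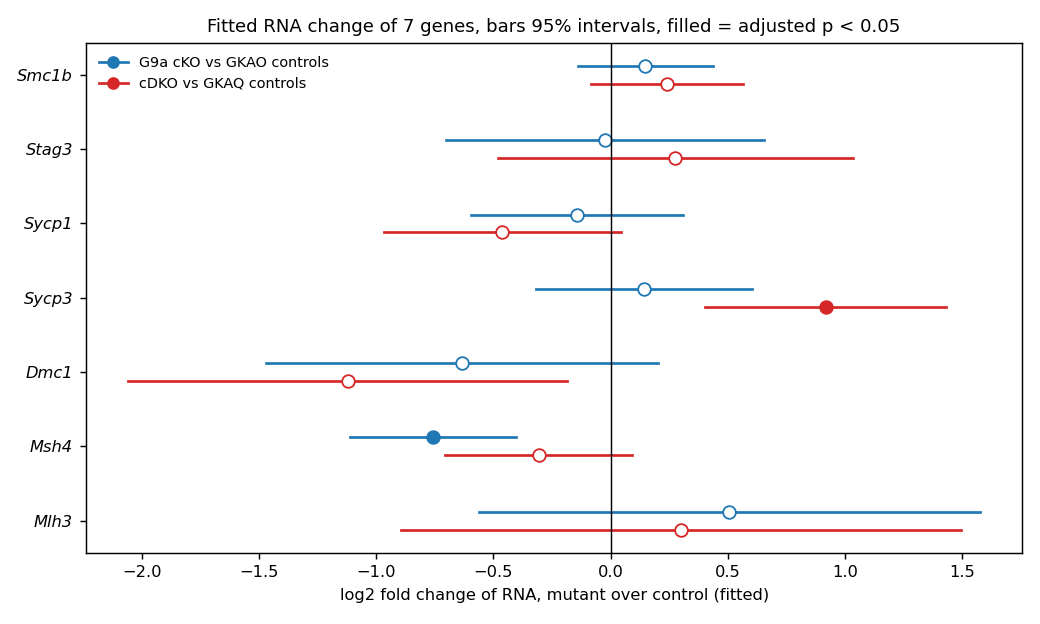
Fitted log2 fold change of RNA (mutant over the controls of its own prefix) for the 7 genes with a read in every library; bars are 95% intervals from limma's standard errors and filled points passed an adjusted p of 0.05. The interval of Sycp3 in the cDKO runs from 0.40 to 1.43 and that of Msh4 in the G9a cKO from -1.11 to -0.40, and all other points are open.

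For the called gene of each mutant, the loci of the most similar profile were looked up among 6940 gene-named loci with a mean of at least 10 RPM, by Pearson correlation of log2 RPM over the 11 libraries. The libraries differ in depth, prefix and genotype, and these differences enter the correlations. The most similar loci were Scfd1 (r = 0.92), Gpd1l (r = 0.92) and Vwa3a (r = 0.91) for Msh4, and Snx16 (r = 0.94), Tdp2 (r = 0.93) and 2610305D13Rik (r = 0.93) for Sycp3. These are the highest of many values and are given as a description.

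Other genes of meiosis and cohesion were read from 8 lists with 82 genes, of which 78 were matched. In the G9a cKO 3 of the 78 were called, 2 higher and 1 lower, where 1.79% of all loci and 5.22% of those with a mean of at least 10 RPM were called. In the cDKO 11 of the 78 were called, 4 higher and 7 lower, where 6.34% of all loci and 15.8% of those with a mean of at least 10 RPM were called, and 49 of the 78 genes were at that level. Between the GKAQ and GKAO controls 13 of the 78 were called, where 3.87% of all loci and 14.8% of those with a mean of at least 10 RPM were called. Without cDKO replicate 1 only Rnf212 and Sycp2l of the 11 kept their cDKO call.

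In the crossover list, 1 of 11 matched genes was called in the G9a cKO and 3 in the cDKO. Shoc1, a factor of the pathway in which MSH4 and MSH5 act, fell in both mutants. It stood at 53.9 to 70.2 RPM in the GKAO controls and 28.4 to 38.8 RPM in the G9a cKO, that is -0.90 on the log2 scale (SE 0.19, adjusted p = 0.000657). It stood at 61.1 to 70.8 RPM in the GKAQ controls and 31.3 to 38.5 RPM in the cDKO, a log2 fold change of -0.90 ± 0.22 (adjusted p = 0.00126). The groups did not overlap in either comparison, and the control series differed by 0.09 (adjusted p = 0.767).

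Rnf212, which encodes a ligase that marks future crossover sites, had 3, 9 and 4 reads in the GKAQ controls and 19 and 26 in the cDKO, or 1.89 to 3.75 and 10.8 to 15.4 RPM. It rose there by 2.42 on the log2 scale (SE 0.52, adjusted p = 0.000213). The GKAO controls held 10, 15 and 11 reads and the G9a cKO 11, 15 and 13. The GKAQ controls were lower than the GKAO controls by a called log2 difference of -1.55 (adjusted p = 0.0280). Cdk2, a kinase that sits at crossover sites and telomeres in prophase, rose in the cDKO from 16.3 to 25.6 RPM in controls to 37.9 to 51.2 RPM, a log2 fold change of 1.14 ± 0.28 (adjusted p = 0.00162).

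In the list of mitotic cohesin and its regulators, 1 of 14 matched genes was called in the G9a cKO and 2 in the cDKO. Between the control series 5 of the 14 were called, all higher in GKAQ. There 3.87% of all loci and 14.8% of those with a mean of at least 10 RPM were called, and 13 of the 14 genes had that level. Pds5a, a regulator bound to the cohesin ring, rose in the G9a cKO from 12.9 to 16.5 RPM in controls to 23.8 to 44.2 RPM, by 1.13 ± 0.27 on the log2 scale (SE; adjusted p = 0.00414). Smc3, the ring subunit shared by mitotic and meiotic cohesin, fell in the cDKO from 456 to 554 RPM in controls to 322 to 411 RPM, a log2 fold change of -0.43 ± 0.09 (adjusted p = 0.000323). Nipbl, the cohesin loader, fell from 359 to 439 RPM to 279 to 356 RPM, a log2 fold change of -0.31 ± 0.10 (adjusted p = 0.0378). Both also differed between the control series, where GKAQ was higher by 0.38 (adjusted p = 0.000402) for Smc3 and 0.29 (adjusted p = 0.0332) for Nipbl. In the list of cohesin protection and release, 0 of 8 were called in the G9a cKO by limma, with 2 at an unadjusted p under 0.05, and 2 in the cDKO. Espl1, which encodes separase, the protease that opens cohesin, rose in the cDKO by 0.38 ± 0.11 (adjusted p = 0.0141), and Meikin, a meiosis-specific kinetochore factor that protects cohesin at centromeres, had a log2 fold change of -0.82 ± 0.25 (adjusted p = 0.0210). Espl1 was lower in the GKAQ than the GKAO controls by a log2 difference of -0.50 (adjusted p = 4.53e-05). Of the 8 genes of that list 2 were called between the control series, 1 higher and 1 lower in GKAQ. All 8 had a mean of at least 10 RPM, and 14.8% of all loci at that level were called between the control series.

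In the list of the synaptonemal complex and axis, 0 of 9 genes were called in the G9a cKO by limma, with 1 at an unadjusted p under 0.05, and 1 in the cDKO. That gene, Sycp2l, an oocyte protein related to the axis protein SYCP2, fell from 94.9 to 133 RPM in the GKAQ controls to 67.6 to 71.7 RPM, that is by -0.71 on the log2 scale (SE 0.16, adjusted p = 0.000434). Between the control series 1 of the 9 genes was called, higher in GKAQ, where 3.87% of all loci were called. Among genes of meiotic entry and telomere attachment, 0 of 10 were called in the G9a cKO, with 2 at an unadjusted p under 0.05, and 1 in the cDKO, Kash5, which links telomeres to the cytoskeleton (log2 fold change -0.59 ± 0.19, adjusted p = 0.0332). Of the genes of break formation 0 of 7 were called in either mutant by limma, with 3 in the G9a cKO and 0 in the cDKO at an unadjusted p under 0.05. Of those of strand exchange 0 of 13 were called in either, with 1 and 3 at an unadjusted p under 0.05. Over all loci 1.79% were called in the G9a cKO and 6.34% in the cDKO. A mean of at least 10 RPM was reached by 4 of the 9 genes of the synaptonemal complex and axis and 4 of the 10 of meiotic entry. It was reached by 1 of the 7 genes of break formation and 9 of the 13 of strand exchange. For genes under that level the lack of a call is not read as a lack of change.

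Of the 6 genes of the germline repressor complex, 1 was called in the G9a cKO and 2 in the cDKO. Cbx3, which encodes a heterochromatin protein that binds methylated lysine 9, had 0, 2 and 2 reads in the GKAO controls and 10, 11 and 5 in the G9a cKO (2.095 ± 0.58 SE on the log2 scale, adjusted p = 0.0225). The gene has near-identical copies elsewhere in the genome, so its count is uncertain, and the control series differed by 2.39 (adjusted p = 0.00200). E2f6, the DNA-binding E2F factor of the complex, had 0, 8 and 7 reads in the GKAQ controls and 13 and 13 in the cDKO (log2 fold change 2.02 ± 0.60, adjusted p = 0.0165). Because 1 control library held 0 reads of each, these fitted values depend on what is assigned to an empty locus. Mga, the scaffold of the complex, fell in the cDKO from 98.3 to 127 RPM in controls to 63.8 to 72.9 RPM, a log2 fold change of -0.66 ± 0.17 (adjusted p = 0.00461). Max, L3mbtl2 and Pcgf6 were not called in either mutant.

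**Figure D3:**
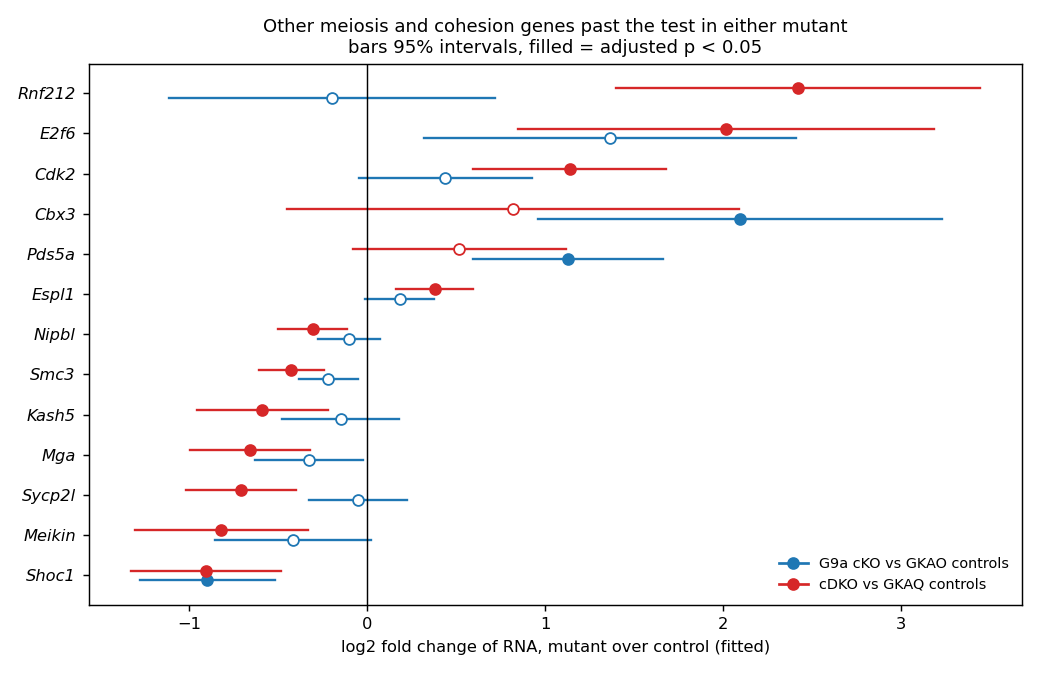
Fitted log2 fold change of RNA (mutant over the controls of its own prefix) for the 13 other genes of meiosis and cohesion that passed an adjusted p of 0.05 in at least 1 mutant; bars are 95% intervals from limma's standard errors and filled points passed. Shoc1 is filled in both mutants, at -0.90 in each.

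H3K9me2 over the 10 loci was read in 10 kb windows as RPM of each library. The library totals behind the scaling were 7048784 and 19128881 reads for controls, 1857144 and 1109191 for the G9a cKO and 1723142 and 1881848 for the cDKO. The values give each window's share of a library, so a loss of the mark across the genome is not visible in them. In controls the 10 loci were between 2.66 (Sycp3) and 4.596 (Rec8, over the RefSeq gene) RPM per window in the mean of 2 libraries, where the mean of all windows with a read was close to 4 RPM.

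Relative H3K9me2 over Sycp1 was higher in both mutants than in controls. Over its 13 windows the controls stood at 2.94 and 3.13 RPM per window, the G9a cKO at 5.80 and 6.03 and the cDKO at 4.24 and 3.64. The G9a cKO was 1.95-fold above the control mean and the cDKO 1.298-fold. Smc1b, over 8 windows, stood at 2.87 and 2.73 RPM per window in controls, 4.17 and 3.83 in the G9a cKO and 4.13 and 5.11 in the cDKO, 1.43-fold and 1.65-fold above controls. Mlh3, over 5 windows, stood at 3.21 and 3.23, at 5.06 and 3.79 and at 4.53 and 4.78, 1.37-fold and 1.45-fold above controls. At these 3 loci the libraries of neither mutant overlapped the controls.

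At Hormad1, Dmc1 and Msh5 the G9a cKO libraries were below the controls. Hormad1 stood at 3.76 and 3.75 RPM per window in controls and 2.83 and 2.70 in the G9a cKO. Dmc1 stood at 3.32 and 2.85 in controls, 2.05 and 2.34 in the G9a cKO and 3.37 and 3.83 in the cDKO. Msh5 stood at 3.64 and 3.73 in controls, 2.51 and 2.104 in the G9a cKO and 3.87 and 4.43 in the cDKO, so for Dmc1 and Msh5 the 2 mutants lay on opposite sides of the controls. In the cDKO the fold over controls was 1.16 at Dmc1 and 1.13 at Msh5, close to the median of 1.12 over 14966 gene-named loci. That median was 1.02 in the G9a cKO. The counts behind the G9a cKO values were 21 and 12 reads at Hormad1, 19 and 13 at Dmc1 and 14 and 7 at Msh5.

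Both genes with called RNA lay among the loci whose H3K9me2 overlapped between groups. Sycp3, over 3 windows, stood at 2.93 and 2.39 RPM per window in controls, 2.87 and 1.80 in the G9a cKO and 3.10 and 2.83 in the cDKO. Msh4, over 6 windows, stood at 3.97 and 3.88, at 3.05 and 4.21 and at 4.35 and 3.81. Stag3 and Rec8 overlapped too.

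In all, the G9a cKO lay above the controls without overlap at 3 of the 10 loci and below at 3, and the cDKO above at 5 and below at 0. Over 14966 gene-named loci treated the same way, 31.7% lay above and 28.0% below in the G9a cKO, and 41.6% above and 18.5% below in the cDKO, with 59.7% and 60.1% not overlapping in either direction. The 10 loci are close to that background. With 2 libraries against 2 the smallest two-sided exact permutation p is 0.333, so no single locus could pass such a test.

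**Figure D4:**
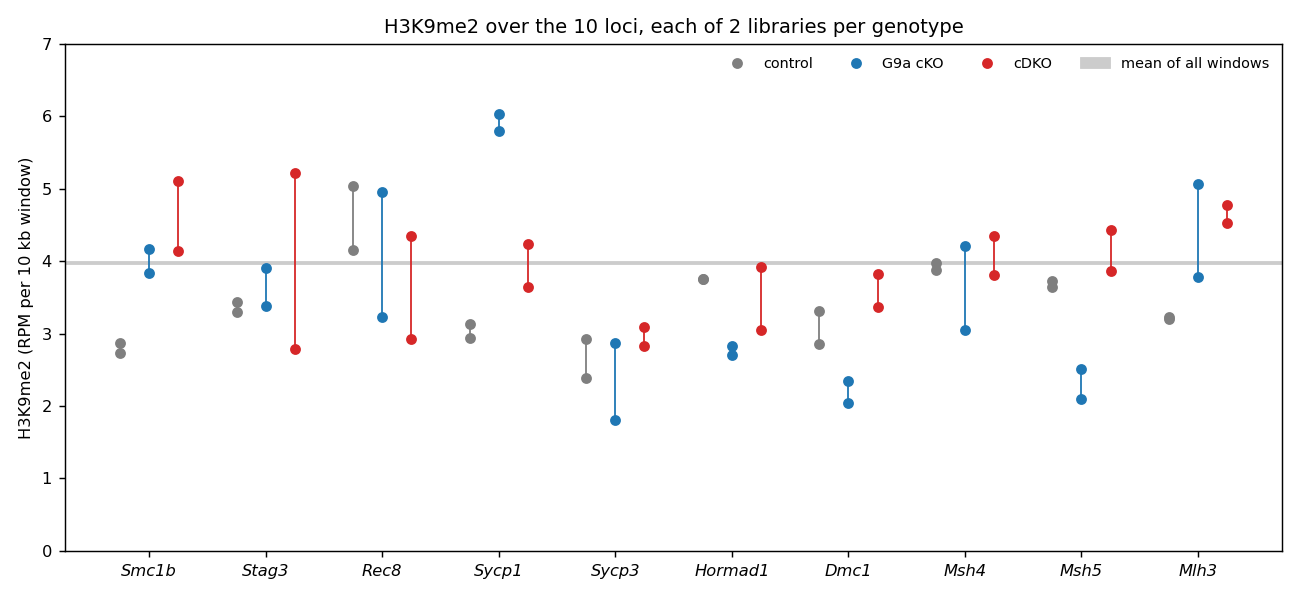
H3K9me2 over each of the 10 loci (RPM per 10 kb window, axis from 0) in 2 libraries per genotype, joined by a line, with a grey band at the mean of all windows with a read. At Sycp1 the G9a cKO libraries stand at 5.80 and 6.03, above the controls at 2.94 and 3.13.

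Window by window, 53 windows overlapped the loci. In the limma fit over 255057 windows, 1 of the 53 was called in the G9a cKO, higher, where 1.85% of all windows were called (1.75% higher). In the cDKO 0 of 53 were called, where 0.0% of all windows were. At an unadjusted p under 0.05 were 13 of the 53 in the G9a cKO and 5 in the cDKO. The share of all windows at that cutoff was not counted. The called window lies within the Sycp1 locus at chr3:102900001-102910000, centred 31.1 kb downstream of the gene start. It held 14 and 63 reads in controls (1.99 and 3.29 RPM), 26 and 17 in the G9a cKO (14.0 and 15.3 RPM) and 12 and 5 in the cDKO (6.96 and 2.66 RPM). The log2 fold change in the G9a cKO was 2.52 ± 0.46 (SE; adjusted p = 0.0413), and the call was lost when G9a cKO replicate 2, cDKO replicate 1 or cDKO replicate 2 was left out. Of the 13 Sycp1 windows, 8 were higher and 2 lower in the G9a cKO without overlap, and 4 higher and 2 lower in the cDKO, against 21.9% higher and 34.1% lower and 21.7% higher and 27.5% lower over all windows. A further window of Sycp1, centred 81.1 kb from the start, stood at 4.97 and 4.39 RPM in controls, 8.62 and 17.1 in the G9a cKO and 8.71 and 10.1 in the cDKO and was not called (adjusted p = 0.0648 and 0.414).

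The window over the Sycp1 start was lower in the G9a cKO and higher in the cDKO without overlap, and was called in neither (adjusted p = 0.442 and 0.896). It held 29 and 71 reads in controls (4.11 and 3.71 RPM), 6 and 2 in the G9a cKO (3.23 and 1.80 RPM) and 9 and 8 in the cDKO (5.22 and 4.25 RPM). With so few reads in the mutants, these directions are uncertain. At Smc1b 6 of 8 windows were higher in the cDKO without overlap and 0 lower, against 21.7% higher and 27.5% lower over all windows. Of all 53 windows of the 10 loci, 18 were higher and 7 lower in the cDKO, and 17 higher and 15 lower in the G9a cKO. Windows of a locus come from the same libraries and are not replicates. The 6 Smc1b windows included the one over the start, with 2.98 and 4.18 RPM in controls, 4.31 and 3.61 in the G9a cKO and 5.80 and 11.2 in the cDKO (adjusted p = 0.435 in the cDKO). The RNA of Sycp1 and Smc1b, given above, was not called in either mutant.

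**Figure D5:**
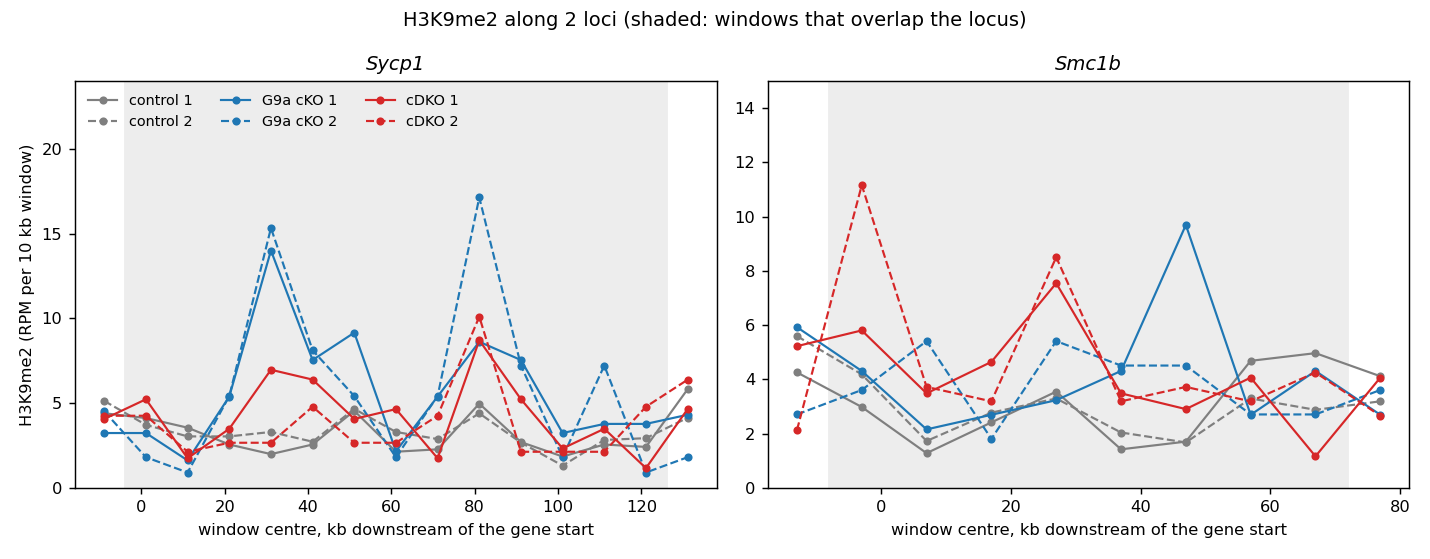
H3K9me2 along Sycp1 and Smc1b (RPM per 10 kb window, axes from 0) against the distance of the window centre from the gene start in kb, 1 line per library, with the windows that overlap the locus shaded. The G9a cKO lines of Sycp1 stand at 14.0 and 15.3 RPM at 31.1 kb, and the Smc1b lines of the cDKO at 7.54 and 8.50 RPM at 27.0 kb, where the controls stand at 3.55 and 3.29.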

How the data were processed

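RNA-seq of 11 libraries and H3K9me2 ChIP-seq of 6 were used; the bisulphite, input and IgG samples were not analysed here. The authors deposited both tables as log2 values, 1 column per library. Per the submitters' processing notes, the tools were Trim Galore, HISAT2 2.1.0, Bowtie2 and Bismark 0.19.0 and the build GRCm38; which tool made which table, the counting and its strand setting are not given in the sources used here. Within each library the values are log2 of whole multiples of 1 read per 1000000 (100% of values, within 0.02 read), and a feature without reads holds 0.9 read. The design's case of log2 input applied, so no pseudocount was added; reads were recovered from the steps. For H3K9me2, 4 further columns match no sample and were not used.

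RNA was fitted with limma 3.58.1 in R 4.3.3, 1 mean per group over all 11 libraries, moderated with trend and robust settings, with Benjamini-Hochberg adjustment over all 38540 loci and two-sided tests. H3K9me2 was fitted likewise over windows with a read in at least 1 of 6 libraries (255057 of 272158). Coordinates are those of the tables; promoter windows are RefSeq's. All 10 genes were named; of the pathway lists, every gene called in a mutant; and for the gene with the smallest adjusted p in each mutant, the 3 most correlated loci. Hfm1, L3mbtl2, Pcgf6 and Max were named after their values were seen. The members, lists and tests were chosen with earlier results of these data known. Fits were tested on simulated data. The title numbers shared by some RNA libraries were not taken as pairs: nothing in the labels says what they mark. Alternatives covered normalization, low-level filters, offset, controls, pairing by title number and leaving out each library. Python 3.11.15 with pandas 2.3.3 and matplotlib 3.10.9 drew the figures.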

Additional observations from a re-analysis of the deposited data

Results flagged for a closer look

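A pair of crossover genes outside the 10 had effects that differed between the mutants by limma's test of the difference itself. For Rnf212 the effect in the cDKO exceeded that in the G9a cKO by 2.62 on the log2 scale (SE 0.70, adjusted p = 0.0239), and the test was lost without GKAO control replicate 2, G9a cKO replicate 1, GKAQ control replicate 3 or cDKO replicate 2 (adjusted p = 0.0602 to 0.130). For Hfm1, a helicase of the crossover pathway, the difference was -2.95 (SE 0.85, adjusted p = 0.0499). It had 4, 7 and 2 reads in the GKAO controls, 14, 15 and 13 in the G9a cKO, 7, 13 and 6 in the GKAQ controls and 0 and 8 in the cDKO, neither effect was called by itself, and the test was lost in 12 of 18 alternatives. The difference was -1.35 without cDKO replicate 1 (adjusted p = 0.319), the library with 0 reads, which entered as 0.9 read, and -4.56 without cDKO replicate 2 (adjusted p = 0.00145). For all loci the share called in this test was 1.08%.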

How the results depend on the processing

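Of the 10 genes, 0 were called in the G9a cKO with log2(RPM + 1), without trend and robust settings, with quantile normalization, against all 6 controls and among the 8 named by the table, and 0 to 1 when 1 library was left out. In the cDKO 0 were called with the first 3 of those settings, with the title number as replicate block and among the 8, and 0 to 1 when 1 library was left out. For the difference between effects 0 to 1 were called when 1 library was left out (Rec8, which has 0 reads everywhere and holds a value set by depth; without GKAQ control replicate 1, where 14705 of 38540 loci were called against 417 with all libraries), and between controls 1, Msh4, with loci of a mean of 1 RPM or more. Across alternatives the adjusted p of Sycp3 in the cDKO ran from 0.00185 to 0.540, with the call lost in 6 of 21, and that of Msh4 in the G9a cKO from 0.00199 to 0.314, with the call lost in 5 of 21.

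Called pathway genes in the G9a cKO numbered 0 with log2(RPM + 1), 1 without trend, 0 with quantile normalization, 10 against all 6 controls and 1 to 3 when 1 library was left out (1 without G9a cKO replicate 2). Over all loci the first 4 settings called 34, 179, 30 and 1197, against 689 with the settings of the report. In the cDKO they numbered 3, 2 and 0 with the first 3 settings, 2 with the replicate block and 4 to 12 when 1 library was left out (4 without cDKO replicate 1, 7 without GKAQ control replicate 3). Over all loci the first 3 settings called 1158, 1154 and 570 and the block 972, against 2444. Shoc1 lost its cDKO call without cDKO replicate 1 (adjusted p = 0.0742), as did Cdk2, Smc3, Nipbl, Mga, Espl1, E2f6, Meikin and Kash5, and Pds5a lost its G9a cKO call without G9a cKO replicate 2 (adjusted p = 0.128). Calls were also lost without GKAO control replicate 1 or G9a cKO replicate 1 or 2 for Cbx3, without GKAQ control replicate 1 for E2f6, Kash5 and Nipbl, without GKAQ control replicate 2 for Espl1 and Meikin, without GKAQ control replicate 3 for Mga, Espl1, Meikin, Kash5 and Nipbl, without cDKO replicate 2 for E2f6, Meikin and Kash5, and without GKAO control replicate 3 for Kash5. Member windows called for H3K9me2 in the G9a cKO numbered 4 over all windows, 3 after centring, 0 without trend, 0 over start windows only and 0 to 1 when 1 library was left out, and in the cDKO 1 over all windows. Of all windows tested, 32053 of 272158 were called in the G9a cKO and 20532 in the cDKO when every window was kept, against 4730 and 0 of 255057 in windows with a read; in the G9a cKO 9151 were called after centring and 0 without trend.

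Values that were not called changed sign: Sycp1 in the cDKO with the replicate block (0.13), Sycp3 in the G9a cKO against all 6 controls (-0.0096), Stag3 in the G9a cKO against all 6 controls (0.18) and in the cDKO with quantile normalization (-0.0015) and the block (-0.21), and Mlh3 in the cDKO with quantile normalization (-0.073). Leaving out 1 library moved Sycp1 from -0.43 to 0.13 in the G9a cKO and from -1.01 to 0.089 in the cDKO, Sycp3 in the G9a cKO from -0.014 to 0.32 and Stag3 in the G9a cKO from -0.16 to 0.17. The cause was not tested. The replicate block left 3 residual degrees of freedom, so a call lost there need not be a weaker effect. In the GKAO series, control and mutant libraries with the same number correlated at 0.01 to 0.11 in their deviations. Those with different numbers correlated at -0.12 to 0.0027. In the GKAQ series the deviations of the 2 cDKO libraries mirror each other by construction, so correlations there cannot show pairs. Whether the numbers mark pairs was not tested. The alternatives of the 8 genes alone and of locus ratios with 1 library left out were chosen after seeing the data.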
